A study of Homo sapiens with 12 samples.

Results

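The genes described here are 56 genes of G2 and mitosis: kinases, cyclins, checkpoint proteins, kinetochore and spindle proteins, kinesins, condensins and cytokinesis factors. They were chosen by function from a fixed list of names, not by a cut on measured values, but with earlier results of these data known. A probe set assigned to that 1 symbol was found for 55 of the 56, among 11963 genes measured in all, and ANLN was not analysed here. RNA came from MDA-MB-231, an established human cell line of triple-negative breast cancer, and was measured on 12 arrays. Cells were kept for 24 h with the vehicle DMSO, with rotenone, with digoxin or with manassantin, and each of the 4 groups has 3 arrays. All groups were grown in full DMEM with serum, and no group carries a genetic change named in the labels. Rotenone inhibits respiratory complex I and also binds tubulin, digoxin is a glycoside of foxglove that inhibits the sodium-potassium pump, and manassantin is a plant lignan. The sample titles name digoxin where the design text names the related glycoside digitoxin, so which compound was used is not settled. The titles do not say manassantin A, which the design text names. The sources used here give no dose and no oxygen level, 1 cell line was used, and whether a group's 3 arrays stand for separate cultures is not stated. The p-values therefore measure only the spread between these arrays, which may be technical.

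Entry into mitosis is driven by the kinase CDK1 bound to cyclins A and B, which CDC25 phosphatases switch on. Aurora and Polo-like kinases then build the spindle, the checkpoint proteins hold cells in metaphase until every kinetochore is attached, and the anaphase-promoting complex with CDC20 ends the arrest by destroying securin and cyclin B. Transcripts of these proteins accumulate late in the cell cycle. Many of their promoters hold a cell cycle genes homology region, bound by complexes that contain LIN54 and recruit FOXM1, and upstream CCAAT boxes bound by NF-Y.

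The promoters are shown because these elements were more frequent among the members than among other genes, though not present in all of them. RefSeq windows on GRCh38.p14, from 250 bases before to 50 bases after each gene's start, were available for 47 of the 56 genes. The hexamers TTTGAA and TTCGAA, as forms of the homology region, and CCAAT were searched on both strands, and no searched motif contains another. TTTGAA or TTCGAA was found for 36 of the 47 members (76.6%), against 17.2% of 9562 genes on the array with such a window and 19.5% of all 27305 genes with one. CCAAT was found for 36 of 47 (76.6%), against 44.2% and 39.7%. Both kinds were present for 28 members (59.6%), against 7.3% of the genes on the array, and CENPE, KIF2C and MELK held neither. A gene with several windows was counted if any window held the motif. A match describes the letters and does not show that a factor binds.

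The stretches below run from base -100 to base -1 before the start, 5′ to 3′ on the strand of the gene, with matches in capitals. A match on the opposite strand appears as TTCAAA or ATTGG. CCNB1 (chr5:69167050-69167149, plus strand), CCNB2 (chr15:59105046-59105145, plus), CDC20 (chr1:43358881-43358980, plus) and PLK1 (chr16:23678789-23678888, plus) belong to genes that were higher with rotenone, and CKS1B (chr1:154974581-154974680, plus) and ZWINT (chr10:56361274-56361373, minus) to genes that were lower. KIF4A (chrX:70290004-70290103, plus) belongs to a gene that was higher with digoxin.
CCNB1: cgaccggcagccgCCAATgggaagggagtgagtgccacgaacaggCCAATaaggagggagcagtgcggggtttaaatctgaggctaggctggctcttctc
CCNB2: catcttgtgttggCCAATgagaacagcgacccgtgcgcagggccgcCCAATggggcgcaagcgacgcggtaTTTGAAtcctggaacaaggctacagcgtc
CDC20: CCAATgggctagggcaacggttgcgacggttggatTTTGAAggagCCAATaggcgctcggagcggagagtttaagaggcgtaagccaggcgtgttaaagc
PLK1: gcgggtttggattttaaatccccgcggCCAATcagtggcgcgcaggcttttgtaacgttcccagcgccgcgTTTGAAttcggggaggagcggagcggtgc
CKS1B: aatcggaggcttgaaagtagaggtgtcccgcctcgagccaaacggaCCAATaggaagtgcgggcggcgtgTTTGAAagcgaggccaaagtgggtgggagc
ZWINT: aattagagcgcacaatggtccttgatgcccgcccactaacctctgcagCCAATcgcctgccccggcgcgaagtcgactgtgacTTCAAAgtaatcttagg
KIF4A: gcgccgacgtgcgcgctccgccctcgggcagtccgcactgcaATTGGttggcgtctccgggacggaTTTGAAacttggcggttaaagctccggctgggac

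In these 7 promoters a CCAAT box stands upstream of the hexamer where both are present, and CDC20 has a further CCAAT box after its hexamer. The stretch of CCNB1 holds 2 CCAAT boxes and neither hexamer. Over the 60 windows of the 47 members, 25 of 52 hexamer matches began between bases -50 and -1, and 45 of 93 CCAAT matches began between bases -100 and -41. Matches were counted per window, so a site shared by overlapping windows of 1 gene, as in ZWINT, counts more than once. Of members with a window that were higher with rotenone 7 of 11 held a hexamer, as did 4 of 4 that were lower and 24 of 31 that were not called.

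**Figure D1:**
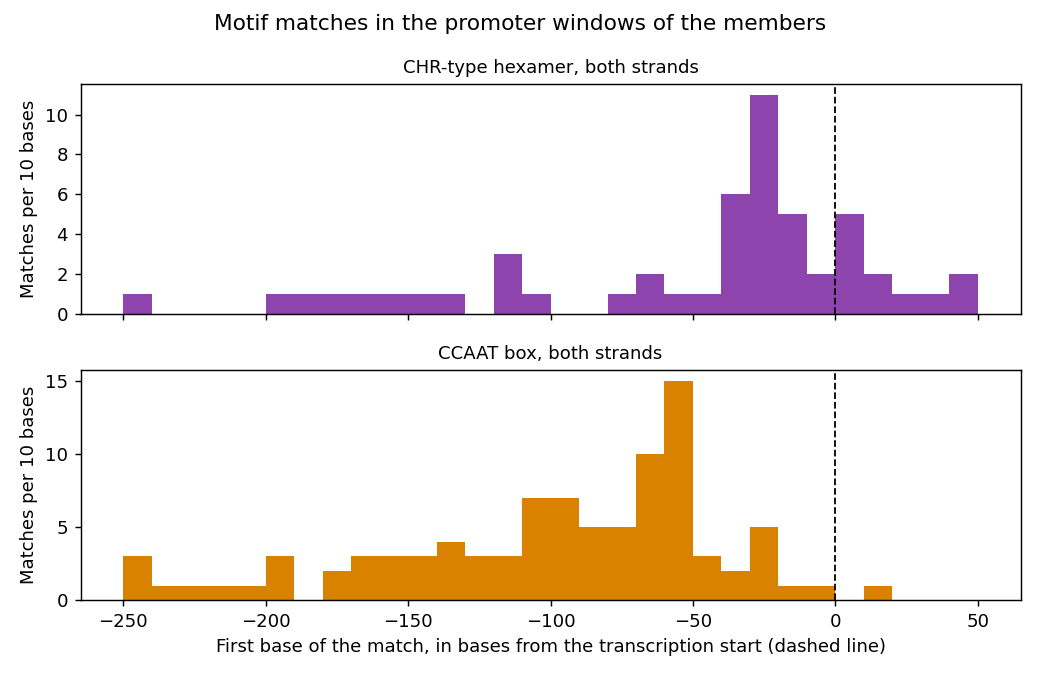
Number of motif matches per 10 bases (vertical axes) by distance of the first base of the match from the transcription start (horizontal axis, dashed line at the start), over the 60 promoter windows of 47 members, both strands. Hexamers (upper panel) gather just before the start, with 25 of 52 between bases -50 and -1, and CCAAT boxes (lower panel) gather further upstream. A site shared by overlapping windows of 1 gene is counted in each.

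The values are log2 intensities of 1 probe set per gene, already on a common scale across arrays. Array medians ran from 5.88 to 5.99, and the 3 digoxin arrays were the lowest (5.91, 5.88 and 5.89). Arrays of 1 group correlated across genes at 0.997 to 0.999. Of markers of the named cell line, the mesenchymal gene VIM was bright (13.03 to 13.30 over the 12 arrays), and the progesterone receptor gene PGR (2.30 to 2.65) and the epithelial gene CDH1 (3.33 to 3.83) were dim. The estrogen receptor gene ESR1 (median 6.19, highest 6.50), EPCAM (7.49 to 8.13), ERBB2 (7.39 to 8.21) and GATA3 (7.74 to 8.31), also listed as low markers, were not at the bottom of the scale. Of genes listed for other cell types, PTPRC (2.69 to 3.22) and ALB (2.76 to 3.38) were near the bottom. CD3E (5.03 to 5.45) and GFAP (4.63 to 5.22), on the same list, were not. No mitotic member was dim: each lay above the 40th percentile of all genes, the lowest at the 65.7th. A gene is called where its adjusted p, by limma with Benjamini-Hochberg adjustment over all 11963 genes, is under 0.05. A difference is the mean log2 value of 1 group minus that of another, given with the model's standard error (SE), with 3 arrays in each group. The 3 comparisons with DMSO share the same DMSO arrays.

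Across the 4 groups the mitotic genes did not move as 1 block. The median member lay 0.10 above its DMSO level with rotenone and 0.04 above it with digoxin, and it lay 0.12 below with manassantin. All genes had medians of 0.01, 0.07 and 0.01. On single arrays, 48, 49 and 48 of the 55 members lay below their DMSO mean on manassantin arrays 1, 2 and 3. On rotenone arrays 1, 2 and 3, 40, 34 and 42 members lay above it. The DMSO arrays were uneven among themselves, with 42, 7 and 21 members below their own mean on arrays 1, 2 and 3. Replicate 2 was the lowest array of its group for 30 of 55 members with rotenone (54.5%) and for 31 with manassantin (56.4%). Replicate 1 was the lowest for 38 with DMSO (69.1%). Those 3 arrays were the lowest of their groups for 32.2%, 31.5% and 37.5% of all genes. The widest spans of group means were those of AURKB (0.99), KIF20A (0.92), CKS1B (0.89) and ASPM (0.84), and the narrowest was that of the condensin gene NCAPG (0.06). RNA from a bulk culture cannot tell fewer cells in G2 and mitosis from less transcript per cell.

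**Figure D2:**
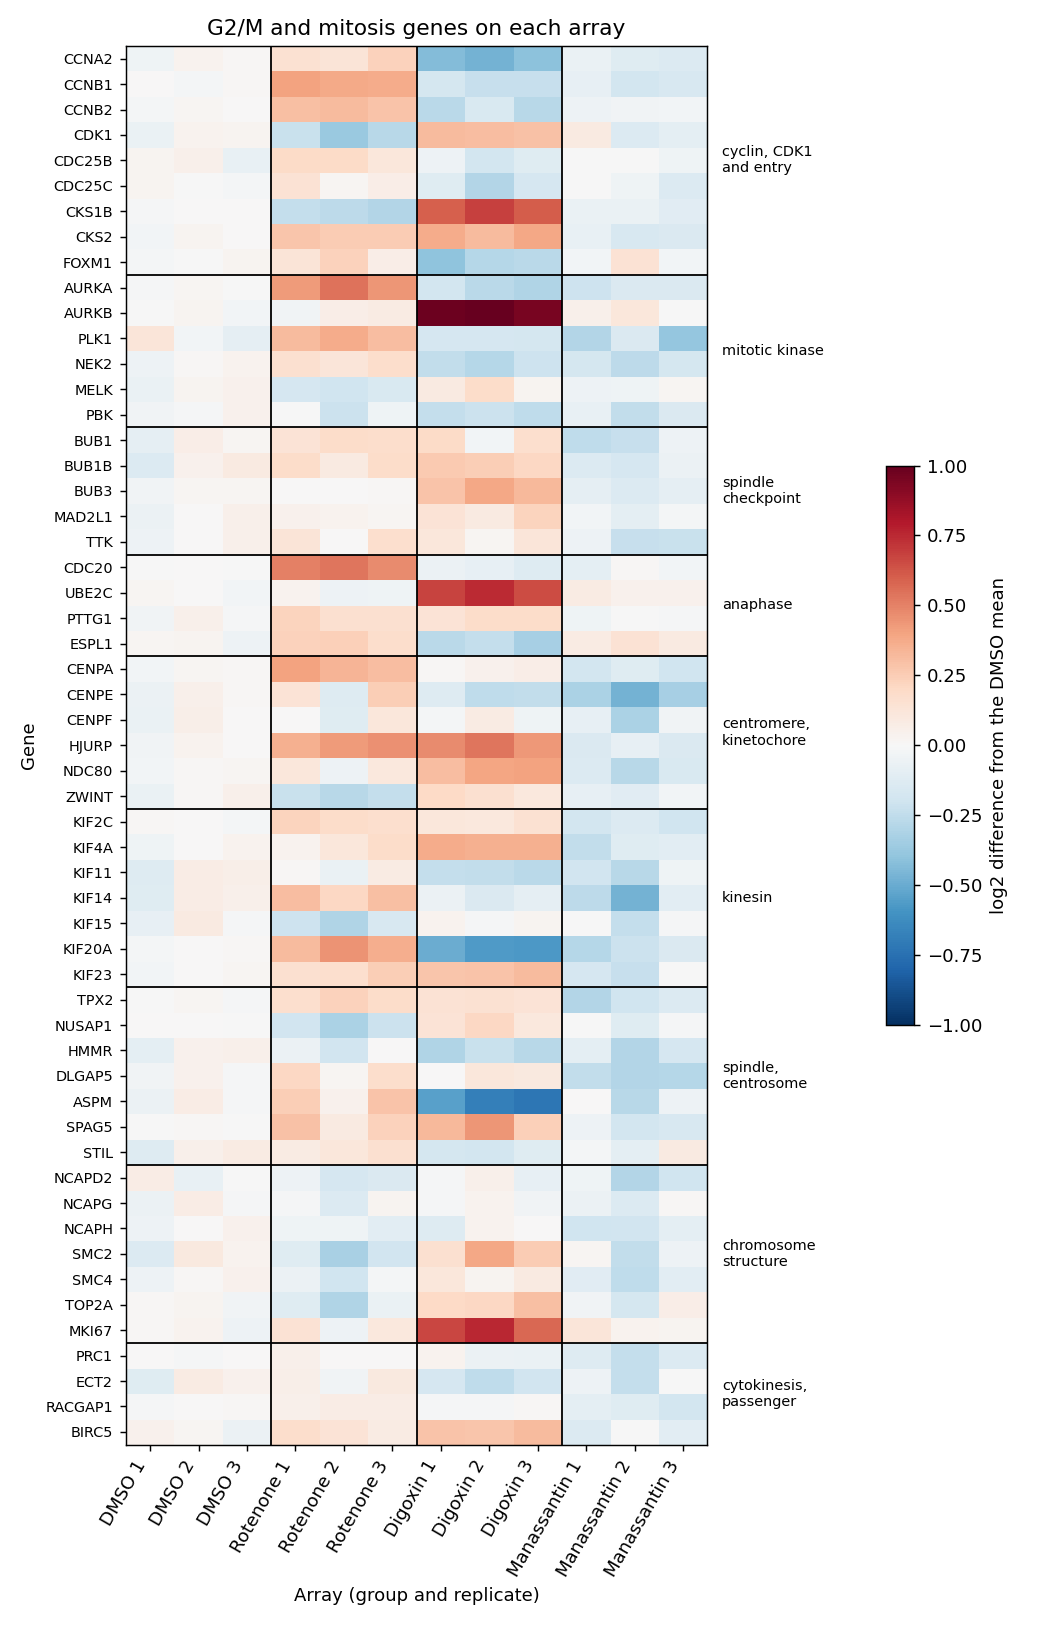
Log2 difference of each of 55 mitotic genes (rows, grouped by role) from its mean over the DMSO arrays, on each of the 12 arrays (columns); red is above and blue below the DMSO mean, and the scale spans -1 to 1. Manassantin arrays are pale blue for most genes, rotenone arrays are red on average for 39 of the 55, with CDK1, CKS1B, ZWINT, NUSAP1 and most chromosome structure genes among the blue, and digoxin arrays hold the strongest colours of both kinds, with AURKB at 0.99 and ASPM at -0.65.

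Rotenone against DMSO shows which mitotic transcripts moved with that compound. The largest rises were those of CDC20, the target of the spindle checkpoint, the kinase gene AURKA, HJURP and the cyclin gene CCNB1, and the 13 members that rose did so by about 1.1-fold to 1.4-fold. CDK1, the kinase that cyclin B activates, fell. Of the 55 members 13 were higher (23.6%) and 4 lower (7.27%), where 3.55% of all genes were called higher and 3.39% lower. The rotenone arrays lay wholly above the DMSO arrays for 26 members and wholly below for 7, where 16.9% and 14.3% of all genes did so.

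CDC20 stood at 10.84, 10.85 and 10.83 on the DMSO arrays and at 11.35, 11.38 and 11.31 with rotenone, a rise of 0.51 ± 0.046 (SE), or 1.42-fold (adjusted p = 9.5e-05). CCNB1 went from 11.34, 11.32 and 11.35 to 11.73, 11.71 and 11.70, a rise of 0.38 ± 0.044 (adjusted p = 0.000444). In both genes the rotenone arrays lay close together and clear of the DMSO arrays. AURKA, which builds the spindle poles, went from 11.17, 11.19 and 11.17 to 11.60, 11.72 and 11.62 (0.47 ± 0.050, adjusted p = 0.000286). CDK1 moved the other way, from 11.38, 11.48 and 11.47 to 11.22, 11.07 and 11.17, a difference of -0.29 ± 0.064 (adjusted p = 0.0199). Its groups did not overlap either, although its arrays were more scattered than those of CCNB1.

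**Figure D3:**
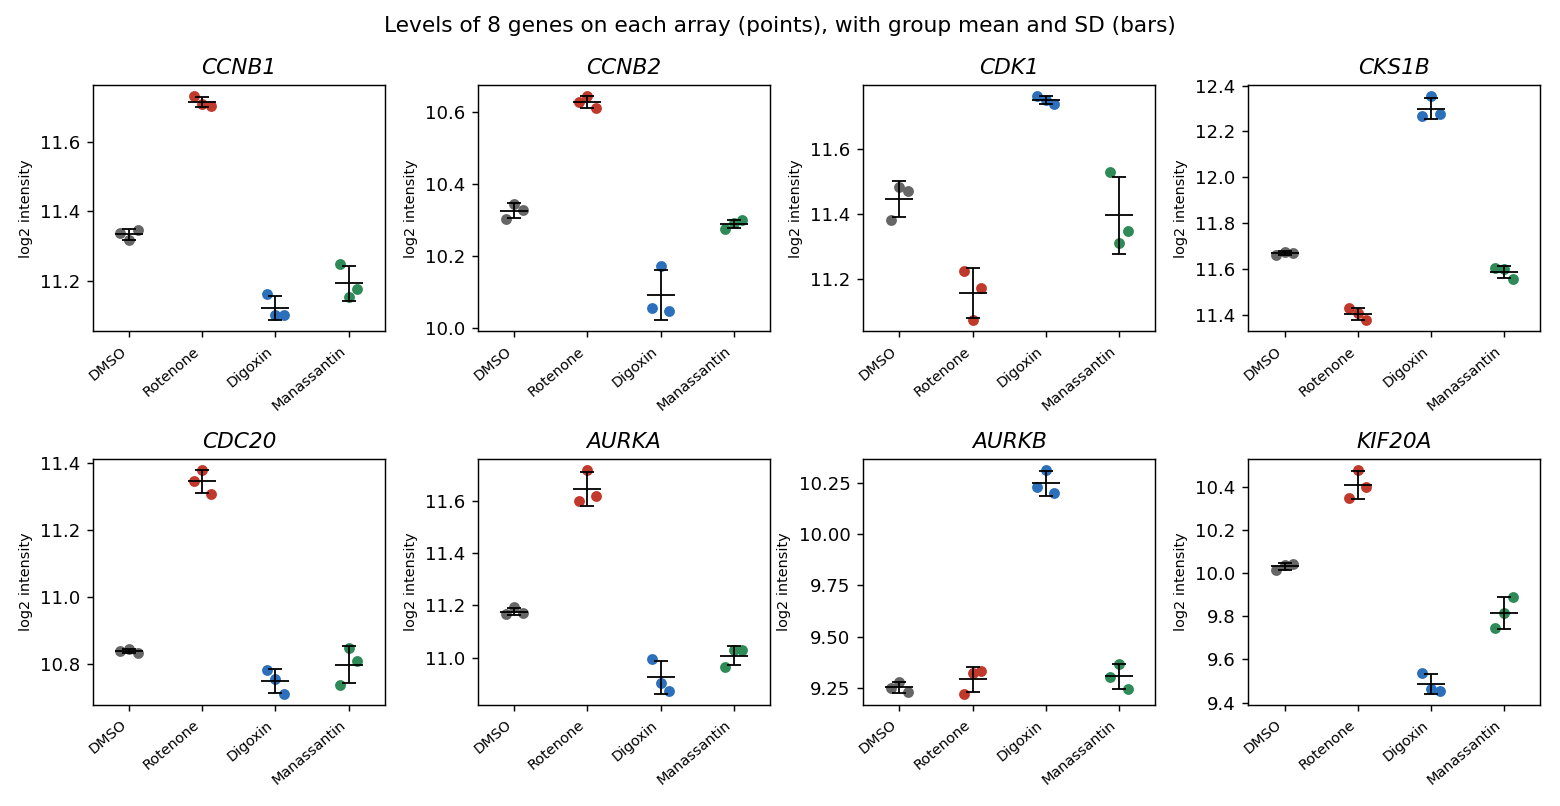
Log2 intensity of 8 mitotic genes (vertical axes, each panel on its own scale) on the 3 arrays of each group (points), with the group mean and SD as bars. Rotenone arrays are highest for CCNB1, CCNB2, CDC20, AURKA and KIF20A and lowest for CDK1 and CKS1B, while digoxin arrays are highest for CDK1, CKS1B and AURKB.

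By role, the genes around CDK1 split. CCNB1, CCNB2 (0.30) and CKS2 (0.26), a small subunit that binds CDK1, rose, whereas CDK1 and the related subunit gene CKS1B (-0.26 ± 0.043, adjusted p = 0.00407) fell. The remaining 4 did not pass: CCNA2 at 0.17 (adjusted p = 0.0531), the phosphatase genes CDC25B at 0.17 and CDC25C at 0.08, and FOXM1, a transcription factor of G2 genes, at 0.14 (adjusted p = 0.219). Of the 6 mitotic kinases AURKA and PLK1 (0.33, adjusted p = 0.0138) rose, and AURKB stood at 0.04 with a 95% interval from -0.08 to 0.15. NEK2, which separates centrosomes, was at 0.15, PBK at -0.09 and MELK at -0.17.

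Anaphase genes were higher for 3 of 4: besides CDC20, the separase gene ESPL1 rose by 0.21 and the securin gene PTTG1 by 0.18. UBE2C, the ubiquitin-conjugating enzyme of the anaphase-promoting complex, was at -0.02 (interval -0.12 to 0.08). None of 5 spindle checkpoint genes passed, with values from 0.01 for BUB3 to 0.17 for BUB1 (adjusted p = 0.211), and BUB1B (0.15), TTK (0.10) and MAD2L1 (0.03) lay between. At the centromere CENPA, the histone that marks it, rose by 0.35, and so did HJURP, the chaperone that deposits CENPA, by 0.41 ± 0.049 (adjusted p = 0.000491). ZWINT, a kinetochore linker, fell by 0.24, and CENPE (0.08), NDC80 (0.05) and CENPF did not pass.

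Of 7 kinesins KIF20A, a motor of the central spindle, rose by 0.38 and KIF2C, a microtubule depolymerase, by 0.19. KIF14 stood at 0.27 (adjusted p = 0.0808), KIF23 at 0.19, KIF4A at 0.11, KIF11 at 0.01 and KIF15 at -0.22 (adjusted p = 0.0836). Among 7 spindle and centrosome genes TPX2, an activator of Aurora A, rose by 0.19 and NUSAP1, a spindle-bundling protein, fell by 0.24. SPAG5 (0.21), ASPM (0.19), DLGAP5 (0.14), STIL (0.12) and HMMR (-0.08) did not pass. None of 7 chromosome structure genes passed, from SMC2 at -0.21 to MKI67 at 0.07, with TOP2A, the decatenating topoisomerase, at -0.16 (adjusted p = 0.221). None of the 4 measured cytokinesis and passenger complex genes passed either, from PRC1 at 0.02 to the survivin gene BIRC5 at 0.13 (adjusted p = 0.163).

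The 13 rises became 8 without DMSO replicate 2, DMSO replicate 3 or rotenone replicate 2, and the 4 falls became 1 without any of these. CDC20, AURKA, HJURP, CCNB1, KIF20A, CENPA, CCNB2 and CKS2 and, among the falls, CKS1B passed whichever of the 6 arrays was removed. PLK1 and ZWINT passed in 3 of these 6 fits, CDK1, NUSAP1, ESPL1 and KIF2C in 2, and PTTG1 and TPX2 in 0. The 18S rRNA control was lower on the rotenone arrays by 0.39 (SD 0.152 with rotenone and 0.315 with DMSO, n = 3 each, exact permutation test, two-sided, p = 0.2, where 0.1 is the smallest possible). With that control as a covariate 8 members were higher and 1 lower, and all genes went to 1.42% higher and 1.41% lower.

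Digoxin against DMSO asked the same of the glycoside, and the mitotic genes parted in both directions. AURKB, the kinase of the chromosomal passenger complex, rose by 0.99 ± 0.053, or 1.99-fold, and UBE2C and CKS1B followed. MKI67 lay between UBE2C and CKS1B by its brightest probe set, but its probe sets disagree in direction. ASPM, a spindle pole protein, KIF20A and CCNA2 fell most. Of the 55 members 22 were higher (40%) and 14 lower (25.5%), against 28% and 26.9% of all genes, so the share that was lower lies near the background. Centring each array on its median gave 28 higher and 10 lower, and moved all genes the same way, to 41.8% higher and 22.5% lower. Arrays did not overlap for 22 members that lay higher (40%) and 17 that lay lower (30.9%), against 32.8% and 29.1% of all genes. Here too the lower share lies near the background. No member changed by 2-fold or more.

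AURKB stood at 9.25, 9.28 and 9.23 with DMSO and at 10.23, 10.31 and 10.20 with digoxin (adjusted p = 1.59e-08). UBE2C went from 11.71, 11.69 and 11.66 to 12.36, 12.43 and 12.34, a rise of 0.69 ± 0.046 (adjusted p = 1.07e-07). ASPM went from 10.26, 10.38 and 10.30 to 9.77, 9.63 and 9.59, a difference of -0.65 ± 0.087 (adjusted p = 4.23e-05). In all 3 genes the gap between the groups was several times the spread within either. KIF20A fell from 10.01, 10.04 and 10.05 to 9.54, 9.46 and 9.46, a difference of -0.55 ± 0.053 (adjusted p = 2.72e-06).

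CDK1 and its cyclins moved apart here too. CDK1 rose by 0.31 ± 0.064, from 11.38, 11.48 and 11.47 to 11.76, 11.75 and 11.74 (adjusted p = 0.00147). CCNA2 (-0.44 ± 0.047, adjusted p = 6.6e-06), CCNB2 (-0.23) and CCNB1 (-0.21 ± 0.044, adjusted p = 0.00132) fell. FOXM1 (-0.32, adjusted p = 0.000976) and CDC25C (-0.20) also fell, CKS1B rose by 0.63 and CKS2 by 0.36, and CDC25B did not pass at -0.12.

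The kinases AURKA (-0.25, adjusted p = 0.00108), NEK2 (-0.24) and PBK (-0.24) fell while AURKB rose, and PLK1 (-0.17, adjusted p = 0.053) and MELK (0.10) did not pass. BUB3 (0.33), BUB1B (0.24) and MAD2L1 (0.15) of the checkpoint rose, and BUB1 (0.11, adjusted p = 0.215) and TTK (0.08) did not pass. Of the anaphase genes UBE2C and PTTG1 (0.17) rose, ESPL1 fell by 0.28, and CDC20 stood at -0.09 (adjusted p = 0.118). HJURP rose by 0.48, NDC80, which holds microtubules at the kinetochore, by 0.37, and ZWINT by 0.15. CENPA (0.04), CENPF (0.01) and CENPE (-0.21, adjusted p = 0.0559) did not pass.

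The chromokinesin gene KIF4A rose by 0.36, KIF23 by 0.29 and KIF2C by 0.12, against falls of KIF20A and of KIF11, the bipolar spindle motor, at -0.25. KIF14 was at -0.10 and KIF15 at 0.02. In the spindle group SPAG5 (0.33), TPX2 (0.15) and NUSAP1 (0.15) rose and HMMR (-0.27) fell beside ASPM, while DLGAP5 (0.07) and STIL (-0.16) did not pass. MKI67, the proliferation antigen that coats mitotic chromosomes, was at 0.66 ± 0.065 (adjusted p = 2.86e-06) by its brightest probe set, SMC2 rose by 0.27 and TOP2A by 0.24 (adjusted p = 0.0157). The other condensin genes did not pass by the probe sets used, with NCAPD2 at -0.01, NCAPH at -0.03 and SMC4 at 0.08. For SMC2 and SMC4 further probe sets, given below, read otherwise. BIRC5 rose by 0.30 (adjusted p = 0.000359) and ECT2, an activator of RhoA at the cleavage furrow, fell by 0.20, while PRC1 (-0.03) and RACGAP1 (-0.01) did not pass. Of the 36 calls 27 passed whichever of the 6 arrays was removed.

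Manassantin against DMSO gave small differences that ran mostly downward. No member was called by limma in either direction, against 0.853% of all genes called higher and 0.117% lower, although 29 of 55 members had an unadjusted p under 0.05 (1896 of all genes). Of the 55 members 50 had a difference below 0, as did 47.5% of all genes. The manassantin arrays lay wholly below the DMSO arrays for 26 members (47.3%) and wholly above for 2, UBE2C and ESPL1, where 8.45% and 13.9% of all genes did so.

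The furthest from DMSO was the kinetochore motor gene CENPE, at 9.30, 9.41 and 9.37 with DMSO and 9.05, 8.88 and 9.03 with manassantin (-0.37 ± 0.086, adjusted p = 0.0673). DLGAP5, which stabilises kinetochore fibres, had the smallest adjusted p of the members, 0.0507, at -0.27 ± 0.057. It stood at 10.31, 10.39 and 10.33 and at 10.10, 10.05 and 10.06, without overlap. PLK1 was at 8.18, 8.02 and 7.96 and at 7.76, 7.91 and 7.67, a difference of -0.27 (adjusted p = 0.0781), and DMSO array 1 was its highest. KIF14 (-0.28), KIF20A (-0.22), TPX2 (-0.21) and NEK2 (-0.20) had adjusted p-values of 0.0668 to 0.135.

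Of the genes followed in every comparison, AURKA stood at -0.17 (interval -0.28 to -0.06), BUB1 at -0.18 (-0.34 to -0.02) and CCNB1 at -0.14 (-0.24 to -0.05). CDK1 at -0.05, CDC20 at -0.04, TOP2A at -0.05, BIRC5 at -0.08, MKI67 at 0.06 and FOXM1 at 0.03 were nearer to DMSO. Role medians ran from -0.17 for the kinesins to 0.02 for the anaphase genes. The count of lower members was 0 with each array left out, 7 when arrays were weighted by quality, 12 after removal of dim genes and 15 under a robust prior that follows intensity. The share of all tested genes called lower was 0.61%, 1.66% (of 7178 genes) and 1.19% at those settings. On these arrays the 3' minus 5' difference of the spiked dap control was higher by 0.58 (SD 0.493 with manassantin and 0.394 with DMSO, exact permutation p = 0.2) and 18S was lower by 0.56 (exact permutation p = 0.3). With 18S as a covariate the median of the members was -0.10 in place of -0.12.

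Manassantin against rotenone tests directly whether the compounds differ. Manassantin-treated cells had less of 27 mitotic transcripts (49.1%), where 3.78% of all genes were lower, and more of 3 (5.45%), where 4.69% were higher. The share that was higher thus lies near the background. The arrays lay wholly apart for 33 members that were lower and 6 that were higher, against 13.1% and 16.1% of all genes. The largest differences were those of AURKA (-0.64 ± 0.050, 1.56-fold lower, adjusted p = 4.75e-05), PLK1 (-0.61 ± 0.068, adjusted p = 0.000447) and KIF20A (-0.59 ± 0.053, adjusted p = 8.67e-05). KIF14 (-0.55), CDC20 (-0.55, adjusted p = 6.63e-05) and HJURP (-0.54) came next. For AURKA the manassantin arrays stood at 10.96, 11.03 and 11.03, below all 3 rotenone arrays at 11.60 to 11.72.

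**Figure D4:**
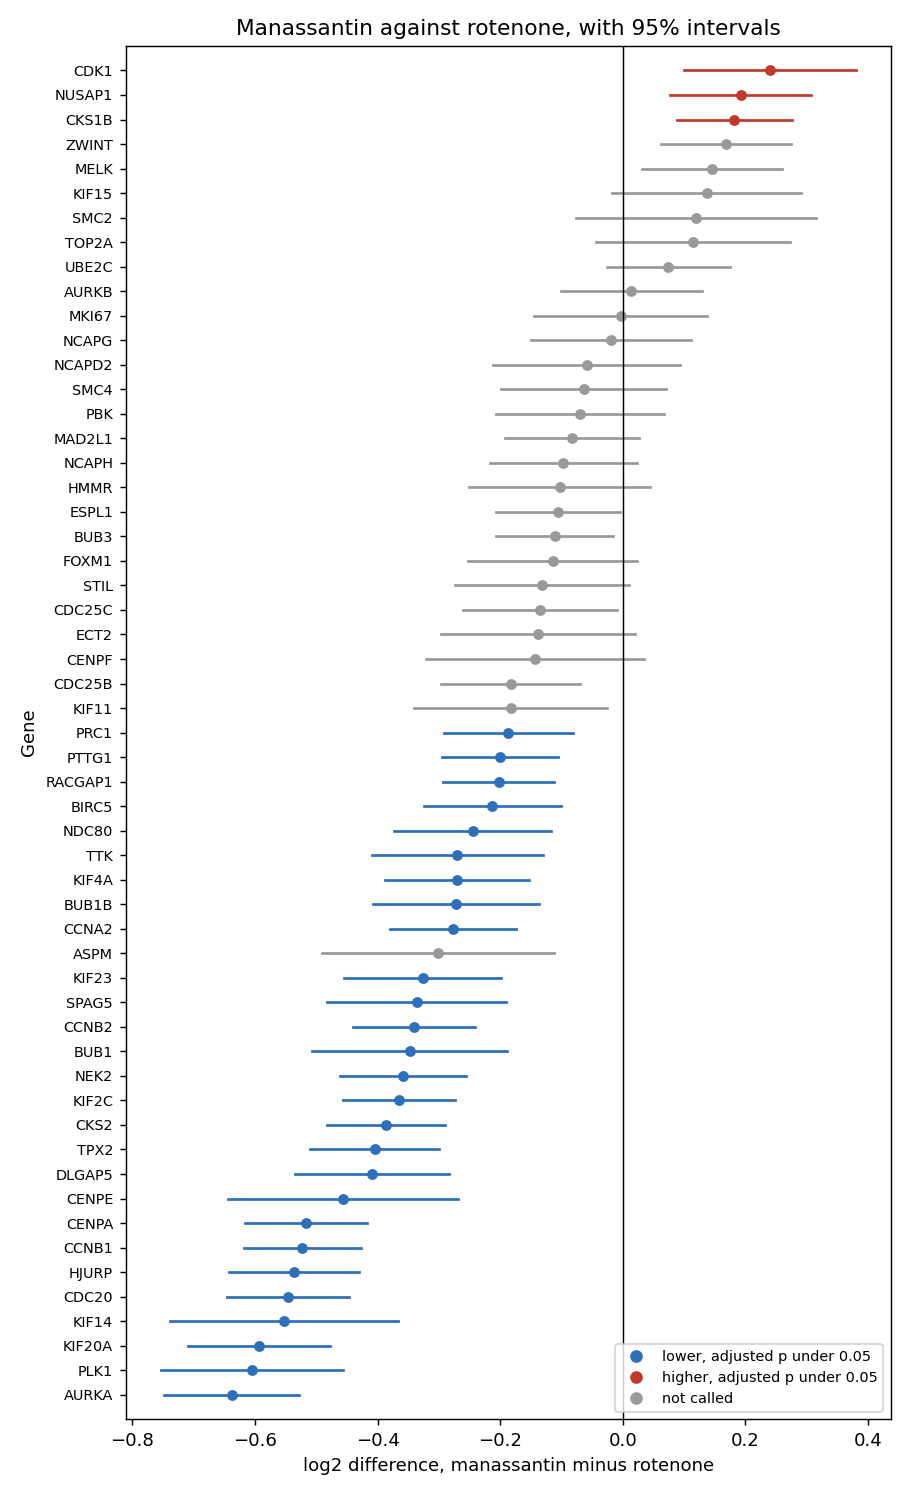
Log2 difference of manassantin minus rotenone for 55 mitotic genes (rows, sorted), with 95% intervals; blue is lower and red higher at an adjusted p under 0.05, grey is not called. AURKA at -0.64 is lowest, CDK1 at 0.24 is highest, and 45 of the 55 genes lie below 0.

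The lower genes covered most roles. They were 5 of 7 kinesins (KIF20A, KIF14, KIF2C, KIF23 and KIF4A) and 4 of 6 centromere genes (HJURP, CENPA, CENPE and NDC80). They were also 3 of 4 cytokinesis and passenger genes (RACGAP1, PRC1 and BIRC5, the last at -0.21, adjusted p = 0.027) and 3 of 5 checkpoint genes (BUB1B, TTK and BUB1, the last at -0.35, adjusted p = 0.0139). TPX2, DLGAP5 and SPAG5 of the spindle group, NEK2 beside AURKA and PLK1 among the kinases, and PTTG1 beside CDC20 were lower as well. CCNB1 (-0.52 ± 0.044, adjusted p = 6.63e-05), CKS2 (-0.39), CCNB2 (-0.34) and CCNA2 (-0.28) were the lower genes around CDK1.

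CDK1 itself was higher with manassantin by 0.24 ± 0.064 (adjusted p = 0.0396), as were NUSAP1 (0.19, adjusted p = 0.044) and CKS1B (0.18, adjusted p = 0.0249). These 3 became 0 without manassantin replicate 1 or without any 1 rotenone array, and 1 without manassantin replicate 3. Of the 7 chromosome structure genes none differed by the test, with MKI67 between -0.14 and 0.14 and TOP2A between -0.04 and 0.27 at 95% confidence. FOXM1 stood at -0.11 (interval -0.25 to 0.02). Lower calls numbered 21 to 25 with each array left out, and 18 of the 27 passed every time.

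Rotenone and digoxin were set against each other in the same fit. Of 55 members 20 were higher with rotenone (36.4%) and 16 lower (29.1%), against 26.3% and 24.2% of all genes, and median centring turned this to 17 and 23 while all genes went to 22% and 37.6%. KIF20A was 0.92 ± 0.053 higher with rotenone, or 1.9-fold (adjusted p = 3.69e-08), ASPM 0.84, AURKA 0.72, CCNA2 0.61, CDC20 0.59 and CCNB1 0.59. On the other side AURKB was at -0.96 ± 0.053 (adjusted p = 2.65e-08), CKS1B at -0.89, UBE2C at -0.71, CDK1 at -0.60, MKI67 at -0.60 and SMC2 at -0.48. KIF20A and CDK1 thus lay on opposite sides: KIF20A at 10.35 to 10.48 with rotenone and 9.46 to 9.54 with digoxin, and CDK1 at 11.07 to 11.22 and 11.74 to 11.76. PLK1 (0.50) and FOXM1 (0.46) were higher with rotenone, TOP2A (-0.40) and BIRC5 (-0.16) lower, and BUB1 did not pass at 0.06.

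Manassantin against digoxin gave 29 members lower (52.7%) and 6 higher (10.9%), against 28.6% and 28.1% of all genes. The lower genes were led by AURKB (-0.94), CKS1B (-0.71), UBE2C (-0.63), HJURP (-0.60), MKI67 (-0.60) and NDC80 (-0.56). Those higher were ASPM (0.54), ESPL1 (0.39), FOXM1 (0.35), KIF20A (0.33), CCNA2 (0.33) and CCNB2 (0.20). All 5 checkpoint genes were lower with manassantin, from BUB3 at -0.44 to MAD2L1 at -0.20. CCNB1 (0.07, interval -0.02 to 0.17), CDC20 (0.05), AURKA (0.08) and PLK1 (-0.10) did not pass.

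For 18 members the array holds further probe sets, 31 in all, and these were tested in a fit on all 22215 probe sets. AURKA was called in the same direction against DMSO by all of its 3 probe sets with rotenone (0.44 to 0.47), and CDK1 by all of its 3 with digoxin (0.31 to 0.54). With rotenone the other probe sets of CDK1 stood at -0.29 and -0.31 and did not pass (adjusted p = 0.0795 and 0.067). BUB3 was higher with digoxin in each of 4 (0.16 to 0.33), but with rotenone 1 of its other probe sets was called lower (-0.23). MKI67 was not settled: with digoxin 2 of its probe sets were higher (0.66 and 0.52) and 2 were lower (-0.42 and -0.30), each called. Its differences between digoxin and the other compounds carry the same limit. BIRC5 with digoxin was higher in 2 probe sets and at -0.03 in the third, and between rotenone and digoxin 1 of its probe sets was called the other way (0.20). TOP2A with digoxin was at 0.24 in the brighter probe set and 0.01 in the other, and with rotenone that other probe set was called lower (-0.29). SMC2 with digoxin was at 0.27 in the brighter probe set and at -0.04 in the other, which did not pass (adjusted p = 0.766). SMC4, not called with digoxin by its brightest probe set, was called higher by another (0.34, adjusted p = 0.0016), and its dimmest stood at 0.24 (adjusted p = 0.0577). A dim probe set of CENPF was called higher with rotenone (0.66). CCNA2, short of the threshold with rotenone by its brightest probe set, was called at 0.34 by its other. Of the probe sets used for the members, 22 carry the suffix for several transcripts and 4, those of FOXM1, BUB3, PTTG1 and CENPA, the suffix for possible cross-hybridization. PTTG1 and CKS1B have near-identical copies in the genome, so their values are uncertain to that extent.

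**Figure D5:**
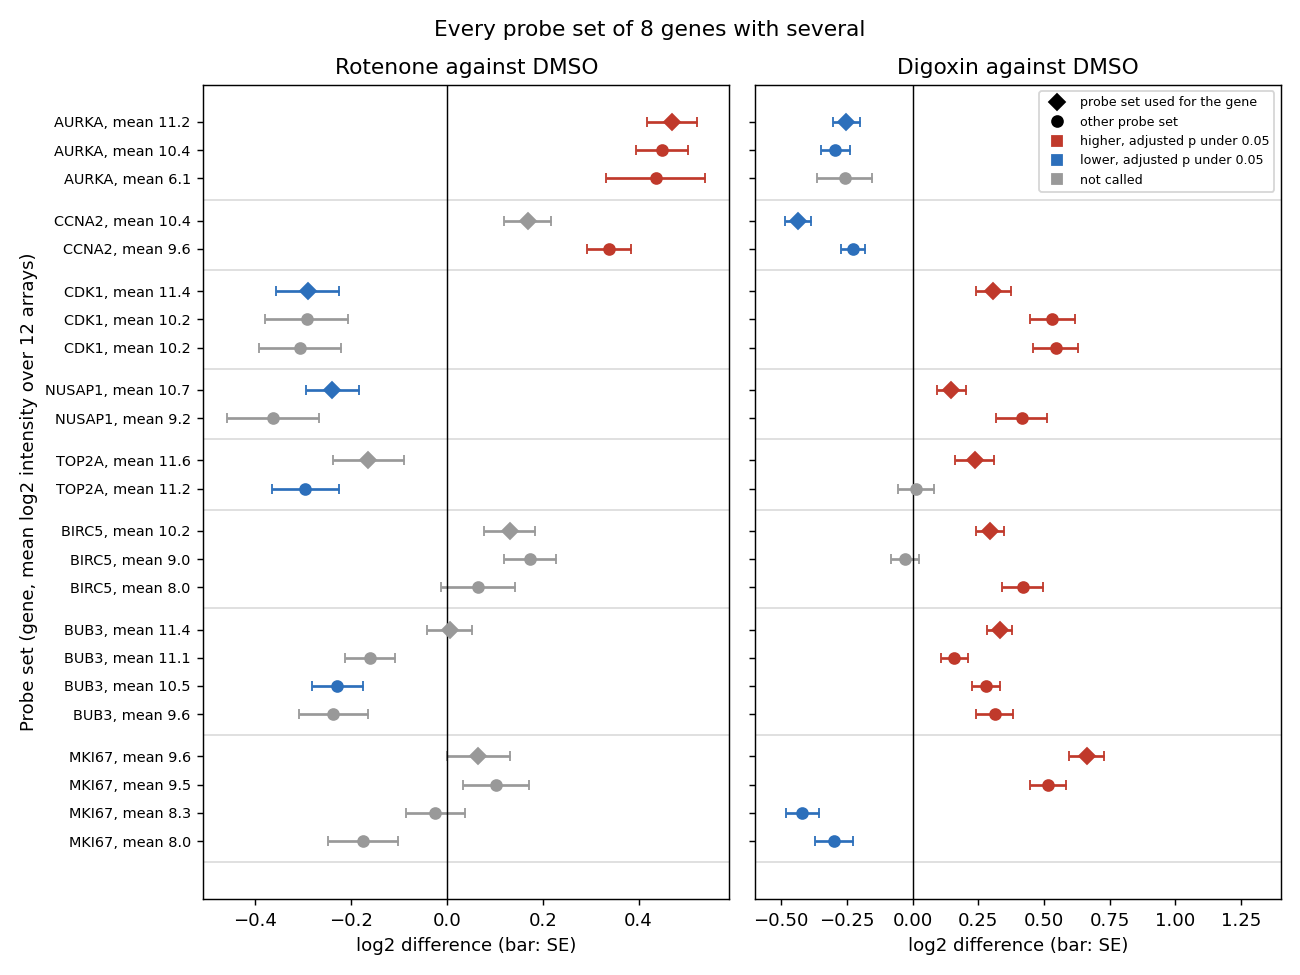
Log2 difference from DMSO (horizontal axes, bars are SE) for every probe set of 8 mitotic genes that have several, with rotenone (left) and digoxin (right); diamonds mark the probe set used for the gene, red is higher and blue lower at an adjusted p under 0.05. The probe sets of AURKA and CDK1 lie together, while those of MKI67 lie on both sides of 0 with digoxin, from -0.42 to 0.66.

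Another 115 genes of mitosis were listed to see whether the wider machinery moved alike, and 88 of them were measured. With rotenone 13 were higher (14.8%) and 12 lower (13.6%), against 3.55% and 3.39% of all genes, with a median of -0.03. BORA, a cofactor of Aurora A, rose by 0.57 ± 0.051 (adjusted p = 9.27e-05), TROAP by 0.56, PIMREG by 0.45 and CDCA8, the borealin of the passenger complex, by 0.40. FBXO5, an inhibitor of the anaphase-promoting complex, fell by 0.62 ± 0.083 (adjusted p = 0.00109), and the centromere and kinetochore genes CENPU (-0.43), CENPC (-0.37) and DSN1 (-0.34) fell too. With manassantin none of the 88 was called against DMSO, and 23 (26.1%) lay wholly below and 2 wholly above the DMSO arrays, against 8.45% and 13.9% of all genes. Against rotenone 18 were lower with manassantin (20.5%), led by BORA (-0.74), TROAP (-0.62), CDCA8 (-0.59) and KIF18A (-0.58). The 7 that were higher (7.95%) were led by FBXO5 (0.41) and CENPU (0.33). Of all genes 3.78% were lower and 4.69% higher.

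With digoxin 31 of the 88 were higher (35.2%) and 26 lower (29.5%), where 28% and 26.9% of all genes were, so the lower share again lies near the background. CDC25A, which activates CDK kinases, rose by 1.22 ± 0.071 (adjusted p = 3.28e-08), the kinetochore gene MIS12 by 1.02 and PKMYT1, an inhibitory kinase of CDK1, by 0.84. ANAPC13, a subunit of the anaphase-promoting complex, rose too (adjusted p = 8.7e-09). CEP55, an abscission scaffold, was at -1.09 ± 0.065 (adjusted p = 4.26e-08), the checkpoint gene ZW10 at -1.03, NSL1 at -0.94 and CDC16, like ANAPC13 of the anaphase-promoting complex, at -0.81. ZW10 and MIS12 both serve the kinetochore and moved in opposite directions.

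Genes of G1/S and DNA replication, the preceding step of the cycle, give the contrast. With rotenone 33 of 47 measured were lower (70.2%) and 0 higher, where 3.39% of all genes were lower and 3.55% higher. Their median was -0.32, where the mitotic members had a median of 0.10. Against rotenone, manassantin had 35 of the 47 higher (74.5%) and 0 lower, where 4.69% of all genes were higher and 3.78% lower. Their median was 0.34, and the mitotic members had 3 higher and 27 lower. With digoxin 25 were higher (53.2%) and 12 lower (25.5%), against 28% and 26.9% of all genes, so the lower share lies near the background. With manassantin 0 were called against DMSO by limma, where 0.853% of all genes were higher and 0.117% lower, and the median was -0.02.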

How the data were processed

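Total RNA was amplified, labelled with biotin and hybridized to GeneChip arrays, per the labels' protocols. The authors deposited 1 log2 intensity per probe set and array; the log2 scale was read from the range (1.65 to 13.75), and near-equal array medians show that arrays had been scaled. The sources used here name no software, background correction or normalization. Of 22277 probe sets 62 were controls, and a platform annotation gave 1 symbol to 19064, several to 1043 and none to 2108. Per gene the brightest probe set, by its average over the 12 arrays, was kept, giving 11963 genes.

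One linear model per gene, with a term for the group and no other, was fitted to the 12 arrays in limma 3.58.1 (R 4.3.3) and moderated with eBayes (residual degrees of freedom 8, prior 3.68), for 6 comparisons and Benjamini-Hochberg adjustment within each. The procedure was tested on simulated data. The number of arrays limits the precision. Every member is described by role; the 6 largest called changes each way, 10 members followed throughout (CCNB1, CDK1, AURKA, PLK1, CDC20, BUB1, TOP2A, MKI67, FOXM1 and BIRC5) and up to 4 other mitosis genes each way were named. The members and lists were chosen with earlier results of these data known. Same-numbered arrays of rotenone and manassantin deviated together (correlations 0.107 to 0.362), above a criterion of 0.1. Manassantin array 1 with rotenone array 3 also reached 0.109, so this criterion does not settle whether the numbers pair the arrays. Same-numbered arrays of other pairs of groups did not reach it throughout. The fit reported uses no pairing, and a fit with the replicate number as a block is among the alternatives. Plots were made in matplotlib 3.10.9 under Python 3.11.15. Alternatives are given in the closing section.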

Additional observations from a re-analysis of the deposited data

How the results depend on the processing

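The number of lower members with manassantin against DMSO was 0 in the fit reported, 0 with any 1 array left out, 3 with the replicate number as a block, 1 with the mean of probe sets, 7 when arrays were weighted by quality, 12 after removal of dim genes and 15 under a robust prior that follows intensity. The share of all genes called lower was 0.485% with that block and 0.192% with the mean of probe sets. For rotenone against DMSO the 13 higher and 4 lower members became 8 and 1 with the 18S covariate, and ranged from 8 to 11 and from 1 to 4 with arrays left out. The 3 members higher with manassantin than with rotenone became 0 with the 18S covariate and 0 in a fit on these 2 groups alone. They became 5 after removal of dim genes, where 12.4% of 7178 genes were called higher. Under that robust prior they became 5 too, where 7.39% of all genes were called higher. With arrays left out they numbered 0 to 2. The 27 lower ones ranged from 20 to 31 over the other settings and were 29 with the replicate block, which, apart from the 3 above, moved no count of members by over 1.5 times. Counts for digoxin stayed within 1.5 times of those reported under every alternative run: 17 to 28 higher and 10 to 19 lower against DMSO. By the probe set or mean used per gene, no named member turned its direction while called under these settings; single probe sets of MKI67 with digoxin, and of BIRC5 between rotenone and digoxin, were called the other way. The cause of these shifts was not tested.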
